A study of Arabidopsis thaliana with 12 samples.

Results

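Dehydrins are hydrophilic stress proteins, and 4 of them could be followed here in roots grown without a stress treatment. The family was taken as 8 Arabidopsis loci. Of these, 4 have a probe set of their own, that is, a probe set which the platform table pairs with that gene alone: LTI30 (AT3G50970), COR47 (AT1G20440), HIRD11 (AT1G54410) and AT4G38410. They are 4 of the 13286 genes with such a probe set on the array. ERD10 (AT1G20450), XERO1 (AT3G50980), RAB18 (AT5G66400) and ERD14 (AT1G76180) were not analysed here.

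Dehydrins belong to the late embryogenesis abundant (LEA) proteins and share a lysine-rich stretch, the K-segment, which folds into a helix on contact with membranes. Most lack a fixed structure in solution and are thought to shield membranes and other proteins when cells lose water. Transcripts of many members build up under cold, drought, salt or abscisic acid (ABA), through CBF/DREB factors that bind the C-repeat and ABF factors that bind the ABA-responsive element. Some members are also transcribed in plants without stress.

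RNA from the roots of 12-d-old seedlings was hybridised to ATH1 GeneChips, on which each transcript is read by a set of short oligonucleotides (a probe set). There were 4 groups of 3 arrays: *sahy1*, a T-DNA insertion mutant of the gene of the nucleolar protein SAHY1; SAHY1OE, which is overexpression line 4-1 of the same gene; Col-7, the wild type labelled as that of SAHY1OE; and Col-0, the wild type labelled as that of *sahy1*. All plants grew on the same basal medium, for 5 d before and 7 d after a transfer to fresh plates, and received no treatment. The methods describe biological triplicates, and whether plants were pooled for an array is not stated. SAHY1OE stands for a single transgenic line. The study's text describes plants that express SAHY1-Myc from the 35S promoter, and does not say whether line 4-1 is one of these. The study's text names the mutant allele of the arrays as *sahy1-1*.

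SAHY1 (AT2G01640) followed the labels, with a signal of 71.8 ± 68.2 in *sahy1* roots against 348 ± 97.0 in Col-0 roots, and of 20477 ± 369.6 in SAHY1OE roots against 265 ± 16.4 in Col-7 roots (SD, n = 3 each). The *sahy1* signals of 65.5, 7.01 and 143 include 2 under the threshold of the filter on low signals. Of 14 root markers, only the root hair expansins EXPA7 and EXPA18 had a probe set of their own in the platform table. They lay above the filter on low signals in all groups. Of 15 leaf markers only RCA (Rubisco activase) could be measured, at means from 845 in Col-0 to 1109 in Col-7, and the seed oleosin OLEO3, alone of 10 seed markers, stayed between 31.5 and 98.8. The markers of the other organs were thus covered in small part. Array medians lay between 192 and 204. A linear model of group means was fitted to all 12 arrays and 13834 probe sets with limma, with Benjamini-Hochberg adjustment. To be called, a probe set had to reach both an adjusted p below 0.05 and a fold over 2, and calls by adjusted p alone are given beside these.

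LTI30 was the dehydrin that differed between the lines, and its signal was low in Col-0 roots rather than high in the mutant alone. LTI30, also named XERO2, is a cold- and ABA-induced dehydrin rich in K-segments, which binds to membranes. Its signals were 7109, 7952 and 7998 in *sahy1*, against 3269, 4996 and 4374 in Col-0. In SAHY1OE they were 10161, 10451 and 7680, against 8578, 8789 and 7852 in Col-7. Every array of *sahy1*, SAHY1OE and Col-7 lay above every Col-0 array, while the arrays of SAHY1OE and Col-7 overlapped. The means were 9430 ± 1523 in SAHY1OE, 8406 ± 492 in Col-7, 7687 ± 500 in *sahy1* and 4213 ± 874 in Col-0 (SD, n = 3 each). In this order SAHY1OE and Col-7, and Col-7 and *sahy1*, did not differ beyond their spread, and the step to Col-0 did.

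**Figure D1:**
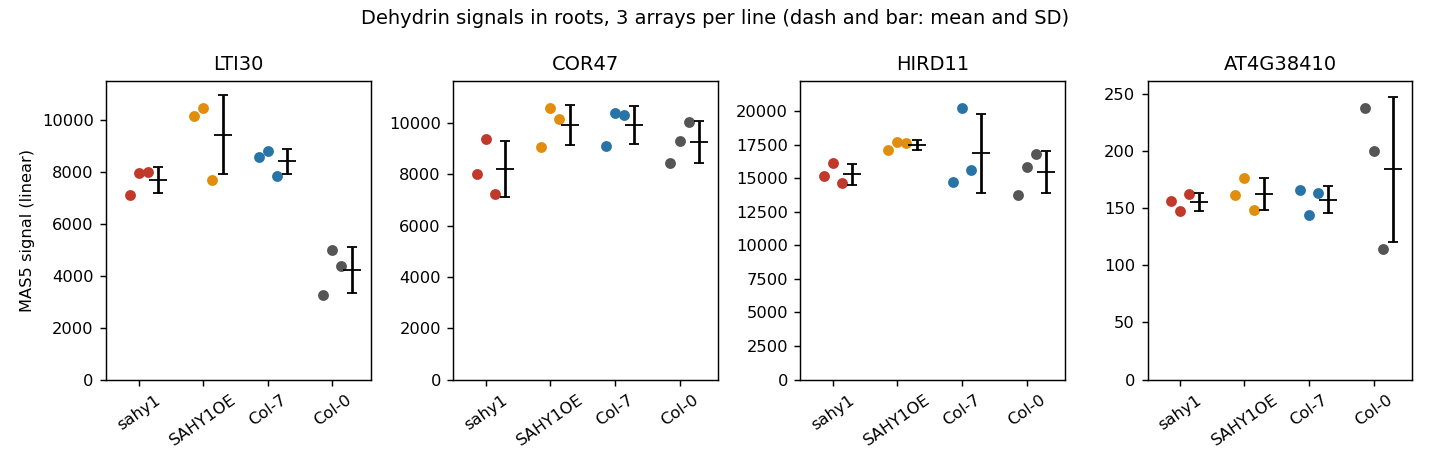
MAS5 signal (linear axes from 0, a separate scale for each gene) of LTI30, COR47, HIRD11 and AT4G38410 on the 3 arrays of *sahy1*, SAHY1OE, Col-7 and Col-0, where points are arrays and the dash with its bar is the mean and SD. For LTI30 the Col-0 arrays, at 3269 to 4996, lie apart from all others, which lie between 7109 and 10451, while for the other genes the groups overlap in most pairs.

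LTI30 was 1.85-fold higher in *sahy1* than in Col-0 (log2 fold change 0.89, standard error 0.16, 95% interval 0.54 to 1.24, limma adjusted p = 0.00214), which passed on adjusted p and stayed under the threshold on the fold. It was thus not called, and 0 of the 4 dehydrins were called in this comparison by limma (1 at an unadjusted p under 0.05, and 0 by the methods' unpaired test), against 4.13% of all probe sets called and 28% at that unadjusted p. On adjusted p alone 1 of 4 was higher and 0 lower, against 7.7% and 7.32% of all probe sets. Without Col-0 replicate 2, the highest of the 3 Col-0 arrays, the log2 fold change was 1.02 and LTI30 was called. The 3 mutant arrays lay above the 3 Col-0 arrays (p = 0.1 by a two-sided exact permutation test, below which 3 arrays against 3 cannot go), as did 17.5% of all probe sets.

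The same gene was called between the wild types. In Col-7 roots LTI30 was 2.02-fold higher than in Col-0 roots (log2 fold change 1.02, standard error 0.16, 95% interval 0.67 to 1.37, limma adjusted p = 0.00175). It was the 1 dehydrin of 4 that was called here, against 1.81% of all probe sets, and 10.5% of all probe sets had every Col-7 array above every Col-0 array. The value stands just above the threshold on the fold, and without Col-0 replicate 1 it was 0.85 and without Col-7 replicate 2 it was 0.98, so that the call was lost in both cases while the adjusted p stayed under 0.05. In SAHY1OE, set against Col-0 after the data were seen, LTI30 was 2.25-fold higher (log2 fold change 1.17, limma adjusted p = 0.000621), the 1 of 4 dehydrins called against 1.63% of all probe sets, and without Col-0 replicate 1 the log2 value was 1.00, just under the threshold. These comparisons share the Col-0 arrays, so their values are not independent of each other. With the methods' unpaired test the adjusted p of LTI30 was 0.0889, 0.177 and 0.164 for *sahy1*, Col-7 and SAHY1OE against Col-0, and none of the differences passed.

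Since Col-0 is the labelled wild type of *sahy1*, *sahy1* against Col-7 cannot tell the mutation from a difference between the wild types. Neither *sahy1* nor SAHY1OE showed a difference in LTI30 against Col-7 that passed. The log2 fold change was -0.13 in *sahy1* (95% interval -0.48 to 0.22, limma adjusted p = 0.652) and 0.15 in SAHY1OE (-0.20 to 0.51, limma adjusted p = 1.00). Of the 4 dehydrins 0 were called by limma between *sahy1* and Col-7, against 2.36% of all probe sets, and 0 between SAHY1OE and Col-7, against 0.0217%. At an unadjusted p under 0.05 the dehydrins numbered 0 of 4 in each, against 28% and 4.71% of all probe sets, and the methods' unpaired test called 0. The difference of *sahy1* from Col-0 minus that of SAHY1OE from Col-7 was 0.73 on the log2 scale (95% interval 0.24 to 1.23), which did not pass over all probe sets (limma adjusted p = 0.0822). No dehydrin was called for this difference by limma, against 3.83% of all probe sets, and 1 of 4 was at an unadjusted p under 0.05, against 19.1%. The low Col-0 signal enters the 0.73, and Col-7 differed from Col-0 by 1.02. Whether the 0.73 reflects the change in SAHY1 was not tested. In a single test over the 4 groups, LTI30 was the 1 dehydrin of 4 that passed (limma F test, adjusted p = 0.000832), against 16.7% of all probe sets.

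**Figure D2:**
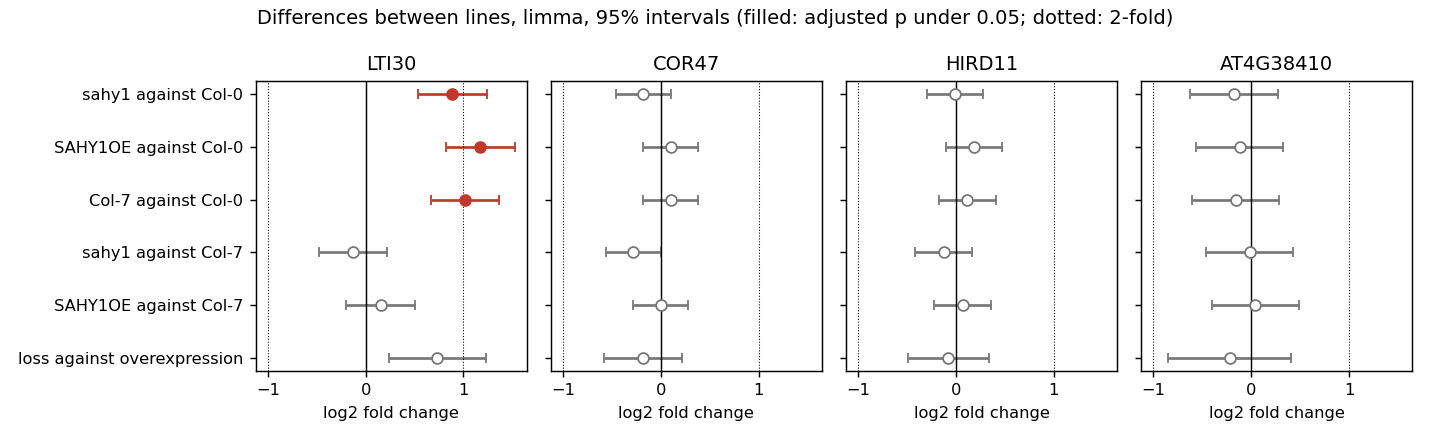
Log2 fold changes of the 4 dehydrins with 95% intervals from limma, for each line against each wild type, for Col-7 against Col-0, and for loss against overexpression, which is the difference of *sahy1* from Col-0 minus that of SAHY1OE from Col-7. Filled points passed an adjusted p of 0.05, which only the comparisons of LTI30 with Col-0 did, at 0.89, 1.17 and 1.02, and dotted lines mark 2-fold.

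COR47, an acidic dehydrin with a stretch of serines, induced by cold and ABA, had strong signals in every line. They were 8024, 9364 and 7225 in *sahy1*, against 8444, 9287 and 10054 in Col-0. In SAHY1OE they were 9057, 10582 and 10170, against 9092, 10399 and 10304 in Col-7. The groups overlapped, and the mutant held the lowest array. The log2 fold change was -0.18 in *sahy1* against Col-0 (95% interval -0.46 to 0.10, limma adjusted p = 0.410). Against Col-7 it was -0.28 in *sahy1* (95% interval -0.56 to 0.00, unadjusted p = 0.0505 and adjusted p = 0.179 by limma). Between SAHY1OE and Col-7 it was 0.00 (-0.28 to 0.28), and between Col-7 and Col-0 it was 0.10 (-0.18 to 0.38). The interval of LTI30 in *sahy1* against Col-0, 0.54 to 1.24, lies wholly above that of COR47.

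HIRD11, a small histidine-rich dehydrin that binds metal ions, gave signals between 13738 and 20205, at or above those of 99.9% of the probe sets on each array. They were 15122, 16137 and 14603 in *sahy1*, against 13738, 15804 and 16795 in Col-0. In SAHY1OE they were 17056, 17714 and 17639, against 14719, 20205 and 15609 in Col-7. The spread was widest in Col-7, with a coefficient of variation of 17.5%, and smallest in SAHY1OE, with 2.06%. Every SAHY1OE array lay above every Col-0 array, as did 11.1% of all probe sets, but the log2 fold change of 0.18 did not pass (95% interval -0.11 to 0.47, limma adjusted p = 0.561). In *sahy1* against Col-0 the log2 fold change was -0.01 (-0.30 to 0.28, limma adjusted p = 0.973), and a change of 2-fold lies outside the intervals of HIRD11 in all 6 comparisons.

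AT4G38410, annotated as a dehydrin and known by its locus only, gave faint signals from 114 to 237, near the filter, whose threshold was 110 to 122 depending on the array. On 11 of 12 arrays it lay above that threshold. The signals were 157, 147 and 163 in *sahy1*, against 237, 200 and 114 in Col-0. In SAHY1OE they were 161, 177 and 148, against 166, 144 and 163 in Col-7. The Col-0 arrays held both the highest and the lowest value, with a coefficient of variation of 34.5%, against 5.03% to 8.72% in the other lines. The log2 fold change in *sahy1* against Col-0 was -0.18 (95% interval -0.62 to 0.27, limma adjusted p = 0.634). It was -0.49 without Col-0 replicate 3 (limma adjusted p = 0.0390) and 0.04 without Col-0 replicate 1, so that its direction rests on single arrays.

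The remaining dehydrins and stress genes that could be named were few. The other 2 dehydrins listed for the genome, AT2G21490 (LEA) and AT4G39130, gave signals of at most 43.9 and 40.1 on any array and did not pass the filter, so they were not tested. Of 93 genes in the lists of other stress genes (those dehydrins, cold-regulated genes, CBF and DREB regulators, other LEA proteins, ABA signalling, drought genes and salt tolerance genes), 14 had a probe set of their own and 4 of these passed the filter. COR15A and COR15B, chloroplast proteins that cold induces strongly, stayed at or below 54.6 and 70.1. No gene of the lists of ABA signalling, drought or salt tolerance had a probe set of its own in the platform table. Among the 9 LEA proteins outside the dehydrins, LEA4-5, LEA18, LEA4-1, M10, M17 and LEA76 did not pass the filter, with highest signals from 4.79 to 114.

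Among the 4 stress genes tested, limma called 0 in *sahy1* against Col-0 (2 at an unadjusted p under 0.05) and the methods' unpaired test 0, and on adjusted p alone 1 was higher and 1 lower. Over all probe sets the shares were the 4.13%, 28%, 7.7% and 7.32% given above. DI21, a drought- and ABA-induced LEA protein, had a signal of 4118 ± 183 in *sahy1* and 2752 ± 307 in Col-0 (SD, n = 3 each), a log2 fold change of 0.59 (95% interval 0.31 to 0.86, limma adjusted p = 0.00691). Under other settings the adjusted p of DI21 in this comparison ran from 0.00119 to 0.0608, so that it did not pass in all of them. In SAHY1OE its signal was 3668 ± 285 and in Col-7 3720 ± 441 (SD, n = 3 each), with log2 values against Col-0 of 0.42 and 0.43 that did not pass (limma adjusted p = 0.0973 and 0.0866). Every array of *sahy1*, SAHY1OE and Col-7 lay above every Col-0 array for DI21, as for 17.5%, 11.1% and 10.5% of all probe sets. In *sahy1* against Col-7 the log2 fold change of DI21 was 0.15 (95% interval -0.12 to 0.43, limma adjusted p = 0.477). AT2G46140 (LEA27), named after its values were seen, was the gene that was lower, at 1345 ± 119 in *sahy1* against 1930 ± 95.8 in Col-0 (SD, n = 3 each), a log2 difference of -0.52 (adjusted p = 0.0122 by limma). Against Col-7, where its signal was 1846 ± 185, it was also lower in *sahy1*, with a log2 difference of -0.46 (adjusted p = 0.0318 by limma). ZAT10, a zinc finger repressor of stress responses, had values of 1332 ± 179 in *sahy1* and 1138 ± 295 in Col-0 (SD, n = 3 each), a log2 difference of 0.25 (adjusted p = 0.606 by limma). In Col-7 it was 766 ± 305 (SD, n = 3), with log2 differences of 0.87 in *sahy1* against Col-7 (adjusted p = 0.0528 by limma) and -0.62 in Col-7 against Col-0 (adjusted p = 0.296 by limma). LEA26, the remaining gene, had 5180 ± 266 in *sahy1* and 5391 ± 89.6 in Col-0 (SD, n = 3 each), a log2 difference of -0.06 (adjusted p = 0.775 by limma). The median log2 fold change of these 4 genes was 0.10, against 0.00 over all probe sets.

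The 2 root hair genes differed in *sahy1* and the leaf gene RCA was highest in Col-7. EXPA7 and EXPA18 had log2 fold changes of -1.05 and -1.19 in *sahy1* against Col-0 (adjusted p = 0.000593 and 0.000102 by limma), and values of 0.10 and -0.08 in Col-7 against Col-0, where LTI30 differed by 1.02. The difference of EXPA7 in *sahy1* fell under 2-fold without *sahy1* replicate 1, *sahy1* replicate 3 or Col-0 replicate 3 (log2 values of -0.97, -0.96 and -0.98). Under the other settings its log2 values ran from -1.12 to -0.98. The call was lost in 2 of these 9 settings, among them the methods' unpaired test (adjusted p = 0.0779). In such samples of whole roots, fewer cells of a type and less RNA per cell cannot be told apart. RCA had log2 values of 0.11 in *sahy1*, 0.14 in SAHY1OE and 0.39 in Col-7 against Col-0 (limma adjusted p = 0.634, 0.635 and 0.109). Its Col-7 arrays lay above its Col-0 arrays, as did those of 10.5% of all probe sets. The part of these markers in the result for LTI30 was not tested.

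The genes whose pattern was most like that of LTI30 shared the low signal in Col-0, which follows from the way they were picked. Likeness was measured as the Pearson correlation of log2 signals over the 12 arrays, which share their group structure, among 7443 other genes with a probe set of their own. AT3G45730 came first (r = 0.98), with 381 ± 18.2 in *sahy1* and 402 ± 37.2 in Col-7 against 126 ± 19.97 in Col-0 (SD, n = 3 each). AT5G43520 followed (r = 0.95), with 2099 ± 185 in *sahy1* and 3028 ± 555 in Col-7 against 430 ± 48.1 in Col-0 (SD, n = 3 each). HTB11 (AT3G46030), a histone H2B gene, was the third (r = 0.95), with 1828 ± 104 in *sahy1* and 1721 ± 118 in Col-7 against 72.1 ± 42.4 in Col-0 (SD, n = 3 each). The Col-0 signals of HTB11, at 23.1, 95.6 and 97.6, lay under the threshold of the filter, which it passed through the groups where it is high. Of the 3, AT3G45730 and HTB11 lie on chromosome 3, where LTI30 lies too, and AT5G43520 lies on chromosome 5. AT3G45730 and HTB11 are not among the 10 nearest measured genes on either side of LTI30. The share of all compared genes on chromosome 3 was not counted.

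**Figure D3:**
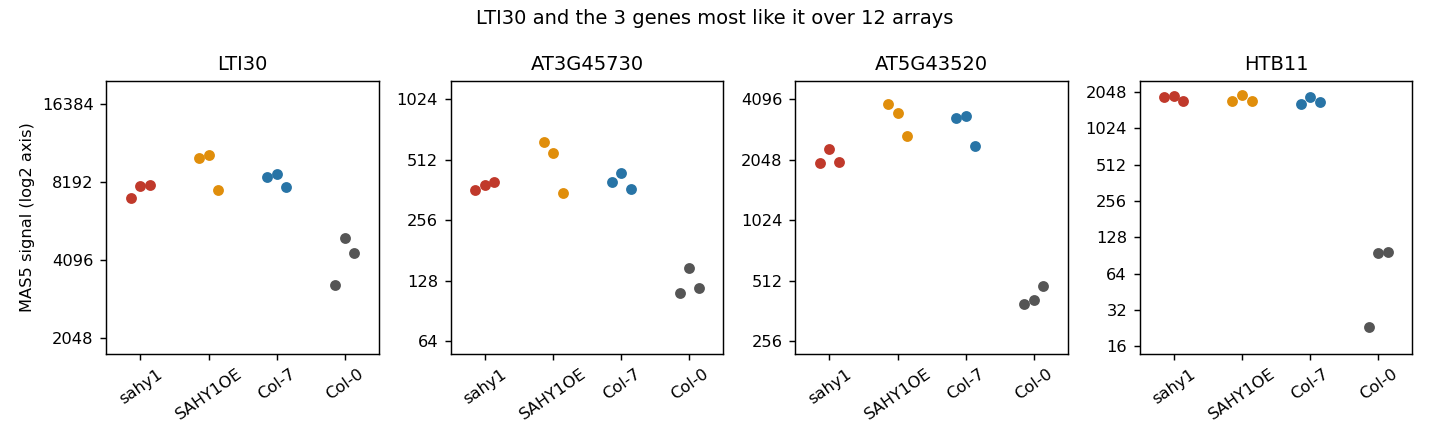
MAS5 signal (log2 axes, a separate scale for each gene) on the 3 arrays of *sahy1*, SAHY1OE, Col-7 and Col-0 for LTI30 and for AT3G45730, AT5G43520 and HTB11, the genes most like it over 12 arrays. In each panel the 3 Col-0 arrays lie below the 9 others, a pattern by which the genes beside LTI30 were picked.

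For COR47 the genes most like it were AT2G36835, AT5G05100 and AT3G01190, a class III peroxidase (r = 0.93, 0.93 and 0.92 over the 12 arrays). None of these passed in *sahy1* against Col-0, with log2 fold changes of -0.36, -0.19 and -0.16 (limma adjusted p = 0.176, 0.502 and 0.472). That their directions match that of COR47 follows from the way they were picked.

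Of these genes, LTI30 is followed directly by XERO1 on chromosome 3, and COR47 by ERD10 on chromosome 1, in the order of protein-coding genes of the RefSeq annotation (TAIR10.1). Since LTI30 differed between the wild types, the 10 nearest measured genes on each side of every dehydrin were also read off, a step added after the data were seen. In Col-7 against Col-0, of 20 neighbours of LTI30 3 were higher and 0 lower on adjusted p, with 2.57% of all probe sets higher and 1.66% lower by that rule. In *sahy1* against Col-0 5 were higher and 1 lower, set against the 7.7% and 7.32% given above, and in SAHY1OE against Col-0 4 were higher and 0 lower, with 2.68% higher and 1.54% lower. In *sahy1* against Col-7 and SAHY1OE against Col-7 none of the 20 passed on adjusted p in limma, where 12.9% and 0.0289% of all probe sets did.

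The neighbours that were higher lay mostly together, at places 4 to 7 after LTI30 in the order of measured genes. AT3G51110 had 168 ± 41.4 in *sahy1*, 165 ± 18.5 in SAHY1OE and 168 ± 6.84 in Col-7, against 69.0 ± 22.4 in Col-0 (SD, n = 3 each). Its log2 fold changes against Col-0 were 1.31, 1.31 and 1.34 (limma adjusted p = 0.00168, 0.00415 and 0.00324), and its Col-0 signals lay under the filter's threshold, so that it was kept through the groups where it is high. AT3G51100 had 1206 ± 141 in *sahy1*, 995 ± 50.5 in SAHY1OE and 1091 ± 147 in Col-7, against 660 ± 64.0 in Col-0 (SD, n = 3 each), log2 fold changes of 0.87, 0.60 and 0.72. AT3G51050 had 913 ± 115 in *sahy1*, 951 ± 55.8 in SAHY1OE and 911 ± 33.6 in Col-7, against 611 ± 72.6 in Col-0 (SD, n = 3 each), log2 fold changes of 0.58, 0.64 and 0.58. AT3G51090 passed in *sahy1* and SAHY1OE, at log2 fold changes of 0.86 and 0.93, and had a value of 0.65 in Col-7 (limma adjusted p = 0.183). Its Col-0 signals were 71.6, 94.6 and 141, of which 2 lay under the filter, so it too passed the filter through the groups where it is high. On the other side AT3G50900, with a value of 0.97 in *sahy1* (limma adjusted p = 0.0305), was the only gene of 10 that was higher in any of these comparisons. The 3 measured genes directly after LTI30 did not pass in any of them. These genes were singled out after their values were seen.

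**Figure D4:**
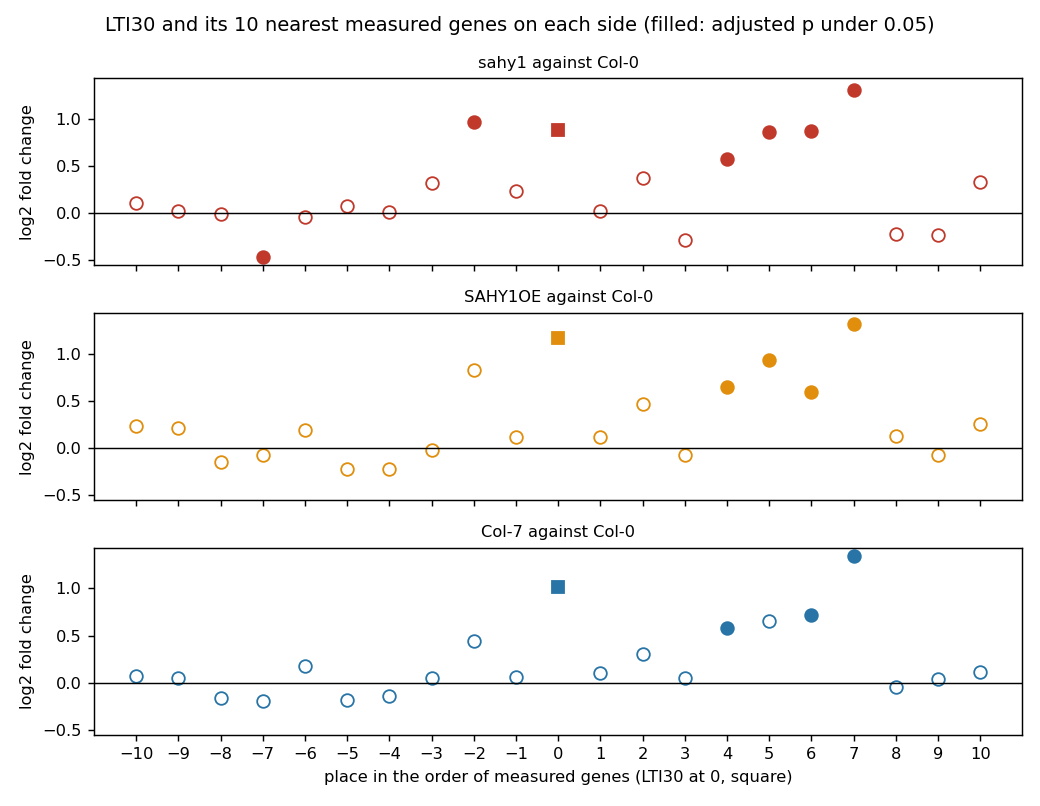
Log2 fold change (vertical axes) of LTI30 (square, place 0) and of the 10 nearest measured genes on each side, by place in gene order on chromosome 3, in *sahy1*, SAHY1OE and Col-7, each against Col-0. Filled symbols passed an adjusted p of 0.05 in limma, and the genes at places 4 to 7 show values from 0.58 to 1.34.

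The neighbours of the other dehydrins were read in the same way. In Col-7 against Col-0, 2 of 20 neighbours of COR47 were higher and 1 lower on adjusted p, against the 2.57% and 1.66% given above, and of the neighbours of HIRD11 and AT4G38410 none passed in limma in either direction. In *sahy1* against Col-0 2 neighbours of COR47 were higher and 1 lower, against 7.7% and 7.32% of all probe sets. In SAHY1OE against Col-0 2 were higher and 0 lower, against 2.68% and 1.54% of all probe sets. Those higher in *sahy1*, SAHY1OE and Col-7 against Col-0 were AT1G20220, with log2 fold changes of 1.42, 0.96 and 1.02, and AT1G20810, with 0.56, 0.84 and 0.77, while COR47 itself did not pass. Among the neighbours of HIRD11, 1 was higher and 0 lower in *sahy1* against Col-0, and 0 higher and 1 lower in SAHY1OE against Col-0. For AT4G38410 these counts were 1 and 1 in *sahy1*, and 0 and 0 in SAHY1OE. In *sahy1* against Col-7, where 12.9% of all probe sets passed, 2 neighbours of COR47 were higher and 0 lower. For HIRD11 and for AT4G38410 1 was higher and 2 lower in that comparison. In SAHY1OE against Col-7 the counts were 0 for each of these dehydrins, against 0.0289% of all probe sets. The medians of the neighbours' log2 fold changes in Col-7 against Col-0 were 0.07 for LTI30, -0.10 for COR47, 0.00 for HIRD11 and 0.01 for AT4G38410, against -0.01 over all probe sets. No test of the difference between these regions was made.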

How the data were processed

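The authors deposited MAS5 signal intensities of 12 ATH1 arrays, 3 per group, on a linear scale. The trimmed mean, after dropping 2% of values from either end, averaged 500 over the arrays once rounded. According to the design text, 10 µg of total RNA was used per array, GeneSpring GX 10.0.1 for the analysis, and an unpaired test with Benjamini-Hochberg adjustment. For MAS5 no version is given in the sources used here. Precision is limited by the number of arrays.

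Values under 1 (46 to 333 per array) were set to 1 and log2 was taken. Of 22810 probe sets 64 controls were left out, and the filter demanded the 40th percentile of the array or more (a signal of 110 to 122) on all 3 arrays of some group, which left 13834. A model of the 4 group means was fitted with limma 3.58.1 in R 4.3.3 (lmFit and eBayes, Benjamini-Hochberg over all probe sets kept) and tested on simulated data. Python 3.11.15 (pandas 2.3.3) was used for tables and matplotlib 3.10.9 for figures.

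Of the probe sets, 13513 pair with 1 gene in the platform table, 503 with several and 8730 with none listed there, and 13436 of the first were found in the RefSeq gene table. Genes named are the dehydrins, called genes of the other lists (or the gene with the smallest p in *sahy1* against Col-0), SAHY1, and the 3 genes most like LTI30 and COR47. Outside this rule, LEA27, LEA26, the markers, the listed genes under the filter and the neighbours of LTI30 and COR47 were named after their values were seen. The members and the lists were chosen with earlier results of these data known. Alternatives were quantile normalization, median centring, adding 32 before log2, no filter or one at the 60th percentile, fits to 2 groups, a replicate block, array weights, the methods' unpaired test, calls by adjusted p alone, and leaving out each array. Raw images and detection calls were not used here.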

Additional observations from a re-analysis of the deposited data

Results flagged for a closer look

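For 3 genes named beside the dehydrins, the difference of *sahy1* from Col-0 was unlike that of SAHY1OE from Col-7 in a direct test (limma, *sahy1* minus Col-0, less SAHY1OE minus Col-7). In SAHY1OE against Col-7 alone, EXPA18 and EXPA7 had log2 fold changes of -0.08 and 0.004, which did not pass. The direct test gave -1.11 on the log2 scale for EXPA18 (adjusted p = 0.00612), -1.06 for EXPA7 (adjusted p = 0.0137) and -9.34 for SAHY1 itself, the gene the lines were made to change (adjusted p = 0.000100). The SAHY1 value rests on *sahy1* signals of which 2 lay under the filter: its difference in *sahy1* against Col-0, -3.07, ranged from -3.98 without *sahy1* replicate 3 to -1.81 without *sahy1* replicate 2, and did not pass without the filter (adjusted p = 0.0788) or with the methods' unpaired test (adjusted p = 0.261). For LTI30 the same test gave 0.73 and did not pass (adjusted p = 0.0822, from 0.0530 to 0.219 under other settings and from 0.0560 to 0.170 when single arrays were left out).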

How the results depend on the processing

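The 4 dehydrins gave 490 pairs of a comparison and an alternative, of which 463 kept direction and side of the threshold, 21 changed sign, 5 lost a call and 1 gained it. The difference of LTI30 from Col-0 stayed at an adjusted p under 0.05 in 20 of 21 alternatives in *sahy1*, in Col-7 and in SAHY1OE, the exception being the methods' unpaired test, under which the count of dehydrins called in Col-7 and in SAHY1OE against Col-0 was 0. In *sahy1* against Col-0 the count was 1 without a threshold on the fold, and ranged from 0 to 1 when single arrays were left out, as it did in Col-7 and SAHY1OE against Col-0. Values that changed sign were those of COR47, HIRD11 and AT4G38410: with quantile normalization COR47 was -0.025 and HIRD11 -0.0035 in SAHY1OE against Col-7, and with array weights AT4G38410 was 0.0036 in *sahy1* against Col-7. When single arrays were left out, COR47 ranged from -0.062 to 0.066 in SAHY1OE against Col-7. HIRD11 ranged from -0.093 to 0.052 in *sahy1* against Col-0, from -0.024 to 0.20 in SAHY1OE against Col-7, from -0.022 to 0.21 in Col-7 against Col-0, from -0.22 to 0.011 in *sahy1* against Col-7 and from -0.22 to 0.013 in the difference of loss and overexpression. AT4G38410 ranged from -0.49 to 0.041 in *sahy1* against Col-0, from -0.022 to 0.11 in SAHY1OE against Col-7, from -0.47 to 0.058 in Col-7 against Col-0, from -0.081 to 0.023 in *sahy1* against Col-7 and from -0.43 to 0.10 in SAHY1OE against Col-0. The cause was not tested. Arrays with the same replicate number deviated together weakly at most: over 18 pairs the correlations ran from -0.10 to 0.24 (median 0.057, against -0.034 for other pairs), and 8 of 12 arrays were closest to their own number, a hint from the data and not from the design. Since not every pair was over 0.1, the numbers were not taken to pair the arrays. A replicate block left the dehydrin counts at 0, 1 and 0 in *sahy1* against Col-0, Col-7 against Col-0 and SAHY1OE against Col-7, and the count over all probe sets in *sahy1* against Col-0 at 575, against 572 without it. Over all probe sets the methods' unpaired test called 285 in *sahy1* against Col-0 and 25 in Col-7 against Col-0, where limma called 572 and 250, and a filter at the 60th percentile gave 330 and 147. In SAHY1OE against Col-7 limma called 3, the methods' test and a fit to 2 groups 1, and no filter 0. Fits to 2 groups and the unpaired test were not run for the difference of loss and overexpression or for the test over 4 groups, which need 4 groups. The filter at the 60th percentile left AT4G38410 out, so it has no value there. On adjusted p alone 2077 and 584 probe sets passed in *sahy1* and Col-7 against Col-0, and 2 of the 4 other stress genes in *sahy1*.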
